A study of Mus musculus with 6 samples.

Results

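The 7 genes described here, Arg1, Arg2, Nos2, Cd80, Cd86, Cd274 and Il4ra, belong to arginine metabolism and to the signals by which myeloid cells meet T cells. Every probe set that the platform annotation gives to 1 of these symbols was taken, which gave 14 of the 45037 probe sets that are not controls, for 7 of the 18193 genes named there. Expression was measured on Affymetrix arrays in marrow cells of the femur and tibia from female HdcGFP mice on a C57BL/6 background, whose age is not given in the sources used here. Hdc encodes the enzyme that makes histamine, and all samples of both groups carry its GFP reporter. The CD11b+Gr1+ cells were split on GFP into HdcGFP-/lo (GFP_min, 3 arrays) and HdcGFP+/hi (GFP_plus, 3 arrays). The description of GFP_min replicate b reads Gr1-negative, while its sorted-cell label reads Gr1-positive like those of the others. Nothing in the labels says that these are separate mice, so each p-value here reflects the spread between the 6 samples alone, and that may be technical.

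L-arginine can be split by an arginase into ornithine and urea, or oxidised by a nitric oxide synthase. Arg1 encodes the cytosolic and Arg2 the mitochondrial arginase, and Nos2 encodes the inducible nitric oxide synthase. Myeloid cells that use up arginine or release nitric oxide are known to restrain T cells, and such cells are commonly gated in mice by CD11b and Gr1. Cd80 and Cd86 encode the B7 ligands, which engage CD28 to stimulate and CTLA-4 to inhibit T cells. Cd274 encodes PD-L1, the ligand of the inhibitory receptor PD-1, and Il4ra encodes the receptor chain that IL-4 and IL-13 signalling share.

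In GFP_plus cells Arg2, Cd274, Il4ra and 1 of the 3 tested probe sets of Cd80 were higher than in GFP_min cells, by 1.38-fold to 2.10-fold. Cd86 was lower, by 1.53-fold in the probe set that passed the test. Arg1 and Nos2 lay below the median of every array in both groups. In these bulk samples, fewer cells of a type and less RNA per cell cannot be told apart. A probe set was tested with limma where it lay above its array median (2.82 to 2.88 log2) on at least 3 of the 6 arrays, and was called at an adjusted p under 0.05. Of the 14 probe sets, 10 were tested, 6 were called higher and 1 lower in GFP_plus. Of all 22956 tested probe sets, 44.6% were called, 21.7% higher and 22.9% lower, so calls were common on these arrays. At a difference of at least 1 log2, 1 member (Arg2 1438841_s_at) was called, beside 8.72% of all tested probe sets. Without GFP_min replicate b, whose description differs, the same counts of 6 higher and 1 lower were found.

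Promoter sequences were at hand for 3 of the 7 genes (Il4ra, Cd274 and Cd80, from RefSeq, build GRCm38.p6). The 250 bases before the start sites of Il4ra (chr7:125552021-125552270, plus strand) and Cd274 (chr19:29367188-29367437, plus strand) are shown. They were chosen because Il4ra, by its probe set 1421034_a_at, and Cd274 rose by nearly the same amount (0.78 log2 each). The other called Il4ra probe set, 1423996_a_at, rose by 0.47. Capitals mark matches to ATGNAAAT and to the GC box GGGCGG, searched on both strands.
Il4ra: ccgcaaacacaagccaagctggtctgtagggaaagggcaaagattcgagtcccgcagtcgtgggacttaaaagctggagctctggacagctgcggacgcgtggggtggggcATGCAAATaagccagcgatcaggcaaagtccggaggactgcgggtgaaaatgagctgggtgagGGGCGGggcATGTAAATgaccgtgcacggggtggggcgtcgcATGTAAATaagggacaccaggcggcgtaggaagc
Cd274: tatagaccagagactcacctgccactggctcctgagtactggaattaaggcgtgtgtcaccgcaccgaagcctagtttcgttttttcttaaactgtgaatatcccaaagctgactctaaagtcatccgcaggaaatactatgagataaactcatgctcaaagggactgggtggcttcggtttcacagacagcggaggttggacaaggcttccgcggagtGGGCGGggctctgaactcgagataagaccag
The Il4ra window holds 3 matches to ATGNAAAT, which begin 139, 67 and 34 bases before the start site and do not overlap. That motif was chosen after the sequence was seen. It occurs at least once in 5.03% of all promoter windows of this length and at least 3 times in 0.0365%. A GC box, which 32.7% of windows hold, begins 76 bases before the start of Il4ra and 31 before that of Cd274. The letters TTCNNNGAA (bound by STAT dimers), the STAT6 form with 1 more base in the spacer, and a pair of GAAA repeats 2 bases apart (bound by interferon regulatory factors) were not in these windows of Il4ra, Cd274 or Cd80. They occur in 7.02%, 5.85% and 2.98% of windows. These are matches of letters only, and binding was not measured.

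Of the arginase genes only Arg2 was above the array medians. It (probe set 1418847_at) read 10.67, 10.68 and 10.84 log2 in GFP_min replicates a, b and c, and 11.64, 11.62 and 11.57 in GFP_plus. All GFP_plus arrays lay above all GFP_min arrays, and the replicates of either group lay within 0.16 log2 of each other. The group means were 10.73 ± 0.09 and 11.61 ± 0.03 (SD, n = 3 each), a rise of 0.88 (SE 0.06, 95% interval 0.74 to 1.02, limma adjusted p = 2.63e-06), or 1.84-fold. A difference of at least this size in either direction was found in 11.3% of all tested probe sets. The other Arg2 probe set, 1438841_s_at, read 10.56, 10.19 and 10.43 in GFP_min and 11.29, 11.80 and 11.29 in GFP_plus. It rose by 1.07 (SE 0.14, limma adjusted p = 1.83e-04), again with no overlap between groups, although GFP_plus replicate b stood higher than the other two. The gap between these probe sets did not separate the groups (exact permutation p = 0.5, where 0.1 is the smallest that 3 against 3 can give).

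Arg1 (1419549_at) read 2.01, 1.84 and 1.91 log2 in GFP_min and 1.98, 2.08 and 2.14 in GFP_plus. The groups overlapped, and every value lay under the array median. Nos2 (1420393_at) read 2.43, 2.64 and 2.58 in GFP_min and 2.84, 2.54 and 2.57 in GFP_plus. Here too the groups overlapped, and no array exceeded its own median. Neither gene entered the test. When all probe sets were tested, their adjusted p was 0.271 and 0.587 by limma. A transcript of Arg1 or Nos2 was thus not detectable above the array median in either group, which does not show that it was absent.

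**Figure D1:**
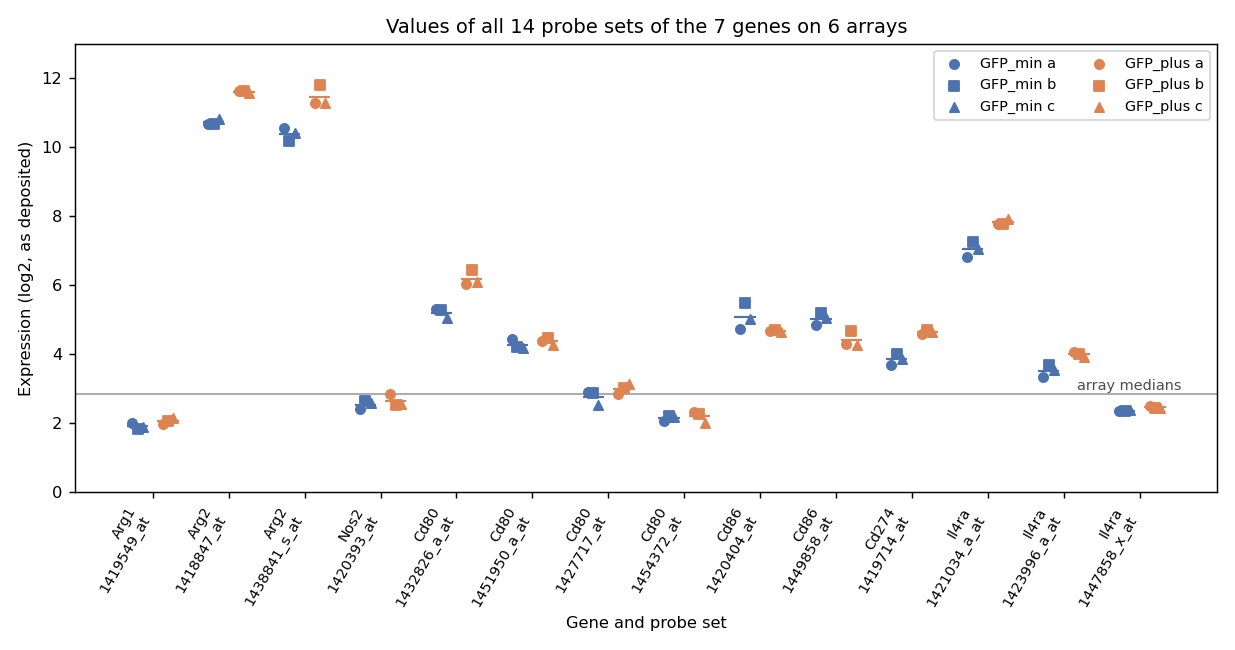
Log2 expression as deposited (y axis) of the 14 probe sets of the 7 genes (x axis), with 1 point for each array, marker shapes for replicates a, b and c, and short lines for the group means. The thin grey band spans the medians of the 6 arrays; Arg1, Nos2, Cd80 1454372_at and Il4ra 1447858_x_at lie in or under it, each value below the median of its own array, while both Arg2 probe sets lie above 10.

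The B7 ligand genes moved in opposite directions on the deposited scale. Cd80 (1432826_a_at) read 5.30, 5.30 and 5.05 log2 in GFP_min and 6.04, 6.45 and 6.10 in GFP_plus. The groups did not overlap, and the means of 5.22 ± 0.15 and 6.20 ± 0.22 (SD, n = 3) differed by 0.98 (SE 0.16, 95% interval 0.63 to 1.33, limma adjusted p = 6.59e-04), or 1.97-fold. The other Cd80 probe sets did not pass the test on the deposited scale. Probe set 1451950_a_at read 4.45, 4.20 and 4.18 in GFP_min and 4.39, 4.46 and 4.27 in GFP_plus, with overlapping groups and a difference of 0.10 (95% interval -0.21 to 0.40, adjusted p = 0.595). Probe set 1427717_at lay close to the array medians, from 2.54 to 3.13, and differed by 0.23 (-0.05 to 0.51, adjusted p = 0.166). The fourth, 1454372_at, lay below the median of every array (2.01 to 2.32) and was not tested. The gap between 1432826_a_at and 1451950_a_at was 0.85 to 1.09 on the GFP_min arrays and 1.65 to 1.98 on the GFP_plus arrays, so the probe sets of this gene did not change equally (exact permutation p = 0.1, the smallest possible). The tested pair that did not pass depended on the scale. With ribosomal centring both passed (0.62 for 1451950_a_at, limma adjusted p = 0.00230, and 0.75 for 1427717_at, 4.38e-04). With median centring 1427717_at passed (0.43, 0.0154), and with poly-A centring both turned negative without passing (-0.26 and -0.13). As the mean of its 4 probe sets, Cd80 differed by 0.34 (limma adjusted p = 0.0453).

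Cd86 (1449858_at) read 4.85, 5.21 and 5.05 log2 in GFP_min and 4.31, 4.69 and 4.28 in GFP_plus. All GFP_plus arrays lay below all GFP_min arrays. The means were 5.04 ± 0.18 and 4.43 ± 0.23 (SD, n = 3), and the difference was -0.61 (SE 0.16, 95% interval -0.98 to -0.25, limma adjusted p = 0.0125). The call was lost without GFP_plus replicate a (-0.55, adjusted p = 0.0511). The other Cd86 probe set, 1420404_at, read 4.75, 5.48 and 5.02 in GFP_min and 4.67, 4.72 and 4.66 in GFP_plus. Its groups did not overlap either, as in 55.3% of all tested probe sets, but GFP_min spanned 0.73 log2 and the difference of -0.40 (SE 0.19) did not pass (adjusted p = 0.105). The gap between the Cd86 probe sets overlapped between groups (exact permutation p = 0.2). The difference of 1420404_at was -0.20 without GFP_min replicate b (adjusted p = 0.327) and -0.57 without GFP_min replicate a, which then passed (0.0351).

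The direction of Cd86 rested on the scale of the arrays. Centring the arrays on their ribosomal protein probe sets, which adds 0.52 to every difference, took 1449858_at to -0.09 (limma adjusted p = 0.626) and 1420404_at to 0.12 (0.570). Centring on the median of 1 probe set for each ribosomal protein gene, which adds 0.82, turned 1449858_at to 0.21 (0.320). Centring on the bacterial poly-A control RNAs, which adds -0.36, gave -0.97 and -0.76, and both then passed. A comparison within each array does not depend on such centring. The log2 value of Cd80 (1432826_a_at) less that of Cd86 (1449858_at) was 0.45, 0.09 and -0.01 on the GFP_min arrays and 1.73, 1.76 and 1.82 on the GFP_plus arrays. That difference was larger in every GFP_plus array, by 1.59 on average. Set against the same Cd86 probe set, Arg2 shifted by 1.49, Cd274 by 1.39 and Il4ra by 1.39. On the deposited scale the probe sets used for these 4 genes lay higher in every GFP_plus array than in any GFP_min array, and this Cd86 probe set lower. The gaps therefore had to separate the groups, and a permutation test of them could not have come out otherwise. These 4 pairs were chosen after the values were seen. Their sizes describe unequal change, with no level of one gene against another.

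Cd274 has 1 probe set, 1419714_at, which read 3.69, 4.02 and 3.88 log2 in GFP_min and 4.59, 4.70 and 4.64 in GFP_plus. The GFP_plus arrays lay within 0.11 log2 of each other and all above GFP_min. The means of 3.86 ± 0.16 and 4.64 ± 0.05 (SD, n = 3) differed by 0.78 (SE 0.14, 95% interval 0.48 to 1.08, limma adjusted p = 0.00111), or 1.72-fold. A difference at least as large was found in 14.1% of tested probe sets. With poly-A centring the difference was 0.42 and still passed (adjusted p = 0.0457), and with centring on the 22 bright poly-A controls alone it did not (0.34, adjusted p = 0.120).

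Il4ra (1421034_a_at) read 6.83, 7.27 and 7.06 log2 in GFP_min and 7.78, 7.78 and 7.92 in GFP_plus. The groups did not overlap, and the spread was wider in GFP_min (0.44) than in GFP_plus (0.13). The means of 7.05 ± 0.22 and 7.83 ± 0.08 (SD, n = 3) differed by 0.78 (SE 0.13, 95% interval 0.49 to 1.07, limma adjusted p = 8.90e-04), or 1.71-fold. Centring on the bright poly-A controls took the difference to 0.33 and ended the call (adjusted p = 0.0811). Probe set 1423996_a_at read 3.35, 3.69 and 3.55 in GFP_min and 4.07, 4.02 and 3.91 in GFP_plus, a rise of 0.47 (SE 0.13, adjusted p = 0.0149). That call was lost without GFP_min replicate a (0.38, adjusted p = 0.0643), without GFP_plus replicate a (0.44, 0.0512) and with poly-A centring (0.11, 0.602). The gap between these probe sets was 3.47 to 3.57 in GFP_min and larger by 0.31 on average in GFP_plus, with no overlap, so, as for Cd80, they did not change equally (exact permutation p = 0.1, the smallest possible). The third probe set, 1447858_x_at, lay below every array median (2.36 to 2.49) and was not tested.

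**Figure D2:**
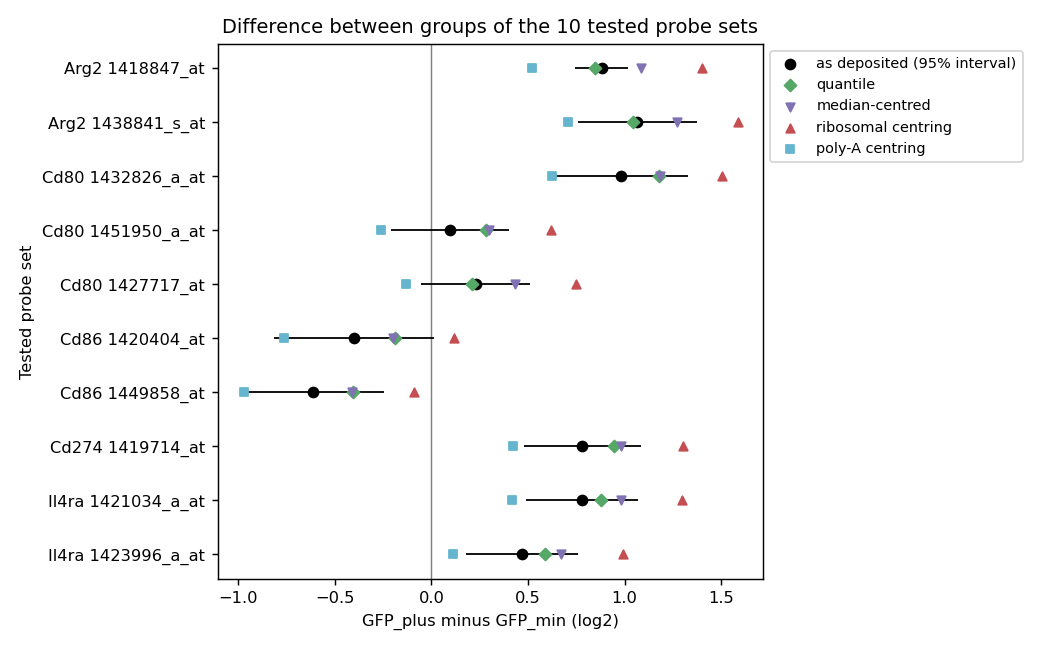
GFP_plus minus GFP_min in log2 (x axis) for the 10 tested probe sets (y axis); black points are the deposited values with 95% intervals from limma, and the other markers give the difference after quantile normalization or after centring. The Arg2 probe sets, Cd80 1432826_a_at, Cd274 and Il4ra stay right of 0 under all 5 scalings shown, while Cd86 1420404_at runs from -0.76 to 0.12.

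The order of the GFP_min replicates was shared by several members. In 5 of the 10 tested probe sets, both of Cd86, both tested ones of Il4ra and that of Cd274, GFP_min replicate b was the highest and replicate a the lowest of its group. How many of all tested probe sets had this order was not counted, so the order cannot be called particular to these genes. Without replicate b, Cd274 differed by 0.86 and Il4ra by 0.88 (1421034_a_at), and without replicate a by 0.69 and 0.67. All 4 of these values passed the test. Arg2 and Cd80 had other orders.

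**Figure D3:**
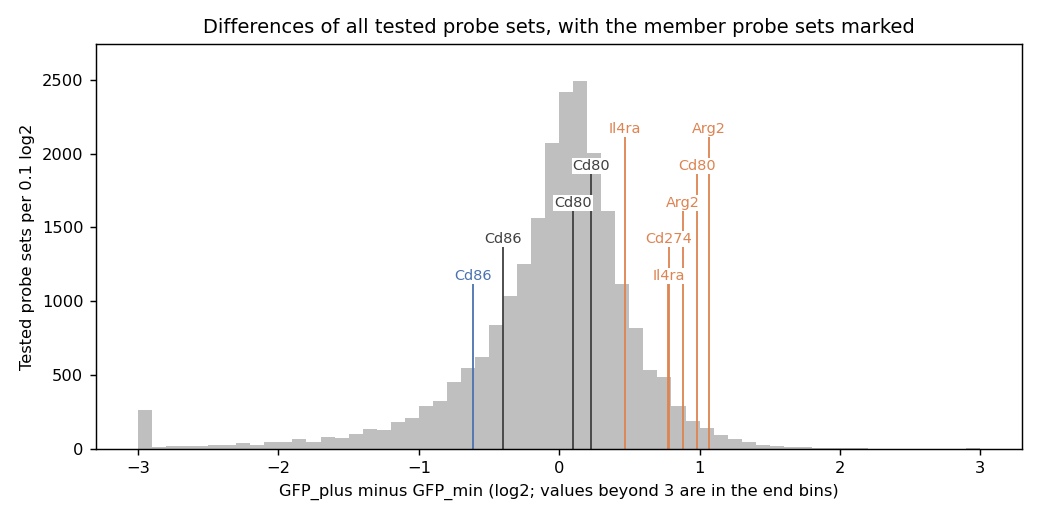
Histogram of GFP_plus minus GFP_min in log2 (x axis) over all 22956 tested probe sets (y axis, probe sets per 0.1 log2), with lines at the member probe sets, orange for higher, blue for lower and dark grey for those not past the threshold. The lines of Arg2, Cd80, Cd274 and Il4ra between 0.47 and 1.07 lie right of the upper quartile of 0.29, and those of Cd86 left of the lower quartile of -0.29.

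Markers of other cells differed between the same samples. Of 10 tested monocyte genes 9 were lower in GFP_plus, and their mean level was 11.46 to 11.48 log2 on the GFP_min arrays and 7.13 to 7.26 on the GFP_plus arrays. Of 6 tested dendritic cell genes 4 were lower and 1 higher (5.86 to 6.07 against 3.86 to 3.94). Among them Cd209a and Irf4, called lower, and Siglech, not called, exceeded the array medians in GFP_min only. These genes entered the test through the group where they are high, which limits what the count of lower genes shows. Neutrophil genes were high in both groups (13.60 to 13.64 against 13.78 to 13.84), with 4 of 10 higher. Among those not called, S100a8 and S100a9 read 14.82 to 14.92. That is at the array maxima (14.83 to 14.92), where a difference could be hidden. All 5 tested basophil genes (2.64 to 2.68 against 4.68 to 4.76) and both tested eosinophil genes (5.17 to 5.23 against 7.29 to 7.67) were higher. The basophil mean level in GFP_min lay under the array medians (2.82 to 2.88). The basophil genes Cpa3 and Fcer1a exceeded the medians in GFP_plus only. They thus entered the test through the group where they are high, so their calls add little to that count. The tested eosinophil genes were Prg2 and Siglecf. Of the other listed eosinophil genes, Ccr3 and Il5ra lay below every array median, and Epx was above it on 1 array only. None of these was tested. Of 5 tested macrophage genes 3 were higher and 2 lower. The T cell gene Cd3d lay well above the medians in both groups (7.61 ± 0.34 and 7.92 ± 0.29), while Cd3e, Cd3g and the NK cell gene Ncr1 lay below every array median. Cd3d and the B cell genes Cd79a and Ms4a1 were tested and did not pass. The excess of 3' over 5' control signal, which grows as RNA degrades, was 0.31 ± 0.05 in GFP_min and 0.64 ± 0.04 in GFP_plus for Gapdh (SD, n = 3, exact permutation p = 0.1, the smallest possible). For Actb it was 0.81 ± 0.02 and 0.87 ± 0.04 (exact permutation p = 0.2). The part of these differences in the values of the 7 genes was not tested.

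Genes around arginine and ornithine were taken from lists, 72 tested genes in 9 lists, each gene by its brightest probe set. Over all 10810 tested genes 48.7% were called, 21.0% higher and 27.6% lower, with a median difference of 0.00, so a count near these shares says nothing particular of a list. Falls of less than 0.52 change sign under ribosomal centring, as do rises of less than 0.36 under poly-A centring. Of 8 tested genes of arginine transport and recycling, 1 was higher and 3 lower (median -0.29; 4 higher with ribosomal centring). Gatm, which starts creatine synthesis from arginine, rose from 7.90 ± 0.11 to 8.95 ± 0.06 (1.04, limma adjusted p = 1.71e-05). Slc7a7, part of a transporter of cationic amino acids, fell by 0.94 (adjusted p = 0.00130), a call lost with the median of ribosomal genes (-0.12, 0.548). Asl, argininosuccinate lyase, which makes arginine, fell by 0.43, and Slc25a15, the mitochondrial ornithine carrier, by 0.47. Both turned positive with ribosomal centring (0.09 and 0.05). The list had 2 called genes instead of 4 without GFP_min replicate b or without GFP_plus replicate a. Asl lost its call without either of those arrays (-0.41 and -0.42) or GFP_min a (-0.39). Slc25a15 lost it without GFP_min b (-0.45), GFP_min c (-0.39), GFP_plus a (-0.45) or GFP_plus c (-0.43). Asl also lost it with the replicate block (adjusted p = 0.0622). Ass1, which acts before Asl, was too dim to test.

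Nitric oxide synthases make nitric oxide only with the cofactor tetrahydrobiopterin. Of 6 tested synthase and cofactor genes 3 were lower and 1 higher (median -0.27). Gch1, the first enzyme of the cofactor's synthesis, read 8.11, 7.81 and 7.95 in GFP_min and 6.67, 6.85 and 6.40 in GFP_plus, a difference of -1.31 (limma adjusted p = 5.44e-05). Qdpr, which recycles the cofactor, fell by 1.31 (6.06e-05) and Spr, its last synthetic enzyme, by 0.63 (0.00209). Spr lost its call with ribosomal centring (-0.11, adjusted p = 0.430) and turned to 0.19 with the median of ribosomal genes. Pts, the second enzyme, was the higher one (0.23, adjusted p = 0.0237). It lost its call without GFP_min b (0.19), GFP_min c (0.23), GFP_plus b (0.21) or GFP_plus c (0.20) and with the replicate block (0.0945), and turned to -0.13 with poly-A centring. Nos3, like Nos2, lay below the array medians. Nos1 lay a little above them on all 6 arrays (3.05 in GFP_min and 3.24 in GFP_plus on average). It did not pass the test (0.19, limma adjusted p = 0.275).

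Ornithine feeds the polyamines and proline. Of 10 tested genes of these routes 5 were higher and 1 lower (median 0.20), with 0 higher after poly-A centring. Smox, spermine oxidase, rose by 0.64 (limma adjusted p = 5.89e-04). Odc1, ornithine decarboxylase, the enzyme that starts polyamine synthesis, rose by 0.61 (0.0123), and Azin1, which shields it from degradation, by 0.26 (0.00411). With poly-A centring Smox (0.28) and Odc1 (0.25) lost their calls and Azin1 turned to -0.09. Oat, which carries ornithine toward proline, fell by 0.37 (0.00223) and turned to 0.15 with ribosomal centring. Without GFP_plus replicate a, 2 genes were higher instead of 5 and Odc1 lost its call (0.51, adjusted p = 0.0574). Without GFP_min replicate a, and also with the replicate block, 3 were higher.

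Of 11 tested genes for ligands and receptors that act beside the B7 genes and PD-L1, 3 were higher and 4 lower (median 0.07). With poly-A centring 0 were higher, and with ribosomal centring 6. Cd48, the ligand of CD2 and 2B4, read 11.08, 10.85 and 10.95 in GFP_min and 6.73, 6.43 and 5.63 in GFP_plus, a difference of -4.70 (limma adjusted p = 2.21e-07). Cd40, through which T cells stimulate antigen-presenting cells, fell by 1.12 (2.98e-04) and Tnfsf9, the 4-1BB ligand, by 0.61 (0.00270). Tnfsf9 lost its call with ribosomal centring (-0.09, adjusted p = 0.531). With the median of ribosomal genes Cd40 lost its call (-0.30, 0.123) and Tnfsf9 turned to 0.21. Sirpa, the receptor of CD47, rose by 0.37 (5.21e-04), a call lost with poly-A centring (0.01, adjusted p = 0.920). Of its 3 tested probe sets 2 were called higher, and the other pointed the opposite way without a call (-0.24). Pdcd1lg2, which encodes PD-L2, the other ligand of PD-1, lay below the median of every array (2.23 and 2.26 on average) and was not tested. Among the listed receptors of T cells for such ligands, Pdcd1, Cd28 and Ctla4 lay below the array medians too. Of the 2 tested, Btla, an inhibitory receptor, fell from 9.52 ± 0.14 to 4.55 ± 0.11 (-4.97, adjusted p = 1.77e-09), and Icos was 2.89 and 2.88. Most monocyte and dendritic cell markers given above fell between the same samples, while the T cell gene Cd3d did not pass. The part of such markers' cells in the falls of Btla and Cd48 was not tested.

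The partners of Il4ra were measured with it. Of 9 tested genes of the IL-4 and IL-13 receptor pathway 3 were higher and 2 lower (median 0.15), with 0 higher after poly-A and 8 after ribosomal centring. Il13ra1, which pairs with the Il4ra chain, read 7.61, 7.60 and 7.88 in GFP_min and 8.37, 8.31 and 8.20 in GFP_plus, a rise of 0.60 (limma adjusted p = 0.00165). The kinase gene Jak1 rose by 0.35 (8.22e-04) and Stat6, the transcription factor of the pathway, by 0.31 (0.00465). With poly-A centring Il13ra1 lost its call (0.24, adjusted p = 0.170), and Jak1 (-0.01) and Stat6 (-0.04) turned. The kinase gene Tyk2 fell by 1.16 (3.20e-05), while its other tested probe set differed by 0.21 and was not called. Il4 lay near or below the array medians (2.78 and 2.86) and was not tested.

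Alternative activation is a macrophage state tied to IL-4. Of 7 tested genes listed for it, 2 were lower and the other 5 did not pass the test (median 0.00). After ribosomal centring 4 were higher. Clec10a, a lectin of macrophages and dendritic cells, fell from 8.40 ± 0.21 to 3.24 ± 0.13 (-5.16, adjusted p = 5.66e-09), and Mrc1, the mannose receptor, by 1.98 (1.00e-05). Without GFP_min replicate a 1 gene was higher. The monocyte markers given above fell between the same samples, and their part was not tested.

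Interferon-gamma is the classical inducer of Nos2 and Cd274. Of 7 tested genes of its pathway 3 were higher and 3 lower (median 0.09; 1 higher with poly-A centring). Socs3, a feedback inhibitor of cytokine signalling, rose from 9.02 ± 0.06 to 10.45 ± 0.27 (1.42, limma adjusted p = 1.01e-05) and the transcription factor Irf1 by 0.61 (1.54e-04; 0.25 and not called with poly-A centring). The receptor genes Ifngr1 and Ifngr2 fell by 0.57 (1.24e-04) and 0.74 (0.00353). Neither call held with ribosomal centring (-0.05 and -0.22), and both turned positive with the median of ribosomal genes (0.25, called, and 0.07). The other Ifngr2 probe set was called in the opposite direction (0.37).

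Of 12 tested further genes by which myeloid cells can restrain T cells, 6 were higher and 2 lower (median 0.19; 2 higher with poly-A and 11 with ribosomal centring). Ptgs2, the inducible cyclooxygenase, read 4.05, 3.76 and 4.07 in GFP_min and 6.17, 6.27 and 5.91 in GFP_plus, a rise of 2.15 (limma adjusted p = 3.55e-06). Entpd1, which encodes the ATP-degrading enzyme CD39, rose by 1.13 (8.85e-06) and Hmox1, heme oxygenase, by 0.63 (0.00323; 0.27 and not called with poly-A centring). Adam17, a protease that sheds surface proteins, fell by 0.31 (0.00314) and turned to 0.21 with ribosomal centring. Ido1 and Il10 were too dim to test.

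**Figure D4:**
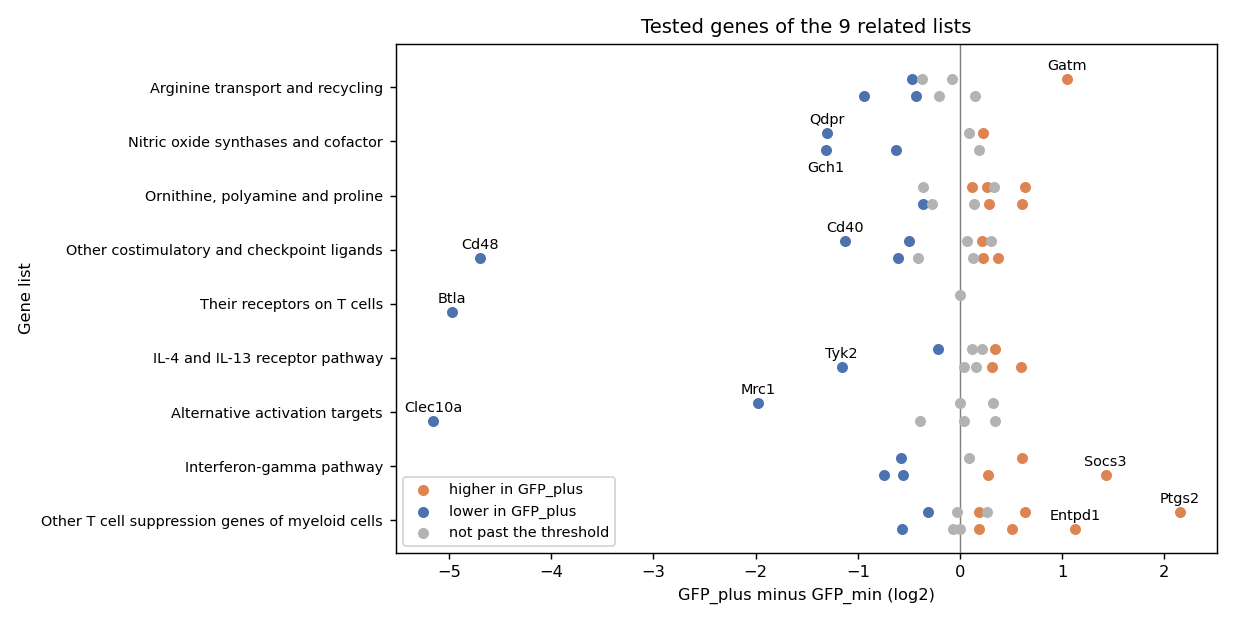
GFP_plus minus GFP_min in log2 (x axis) of the 72 tested genes in 9 related lists (y axis), 1 point a gene, orange for higher, blue for lower and grey for those not past the threshold; genes beyond 1 log2 are named and the vertical offset has no meaning. Ptgs2 is the furthest right (2.15), and Clec10a (-5.16), Btla (-4.97) and Cd48 (-4.70) are the furthest left.

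Likeness of pattern was measured as the root mean square difference of mean-centred log2 values over the 6 arrays, against about 10810 tested genes. Nearest to Cd274 was Ddit3, a stress-induced transcription factor gene, at 0.018 log2, followed by Cdkn2aipnl (0.053) and Adam19 (0.057). Nearest to Il4ra were Ccno (0.057), Aacs (0.062) and Cd274 itself (0.064). Nearest to Arg2 were Hdac4 (0.044), Mgam (0.055) and Ankrd28 (0.058), to Cd80 Sstr4 (0.096), Tspan2 (0.102) and Ppp1r3d (0.110), and to Cd86 (1420404_at) Tsr2 (0.057), Akap11 (0.067) and Psmd3 (0.070). For the dim Arg1 they were Zfp14 (0.025), Gm34006 (0.029) and Slc45a1 (0.032), and for Nos2 Men1 (0.027), Col5a1 (0.029) and Nupr1l (0.031). With 6 arrays in 2 groups this measure mostly reflects the size of the group difference.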

How the data were processed

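Total RNA of the sorted cells (100 ng) was labelled with biotin for 3' arrays, per the labels' protocols. The authors deposited log2 expression values of 45101 probe sets on 6 arrays. GCRMA is the tool named in the submitters' processing notes, with no version or settings given there. Their range shows that the values are log2. They were used as deposited, with 64 control probe sets left out.

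Titles gave the groups and replicate letters. Gene symbols are those of the platform annotation in GEO, where 34945 had 1 symbol, 932 several and 9160 none. Symbols of 34741 were matched to RefSeq gene IDs. Pearson correlations over probe sets were 0.996 to 0.998 within groups and 0.978 to 0.982 between them. Precision is limited by having 3 arrays a group.

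GFP_plus minus GFP_min was fitted with limma 3.58.1 in R 4.3.3 (lmFit, eBayes with an intensity trend, Benjamini-Hochberg over all 22956 tested probe sets, two-sided). The fit was tested on simulated data. The members and lists were chosen with earlier results of these data known. Of each list up to 4 called genes with the smallest adjusted p were named, or up to 2 with the largest difference where none was called. For each member the 3 nearest genes in pattern were named. Other listed genes named here were chosen after their values were seen. Some named genes had a tested probe set without the call: Pts, Odc1, Sirpa, Tyk2, Jak1, Stat6 and Adam17. Alternatives changed the filter, variance model, array weights, scale, block, samples, size threshold and the probe sets of a gene. Centring on bright poly-A controls and on the median of ribosomal protein genes was added after the data were seen. Plots used matplotlib 3.10.9 (Python 3.11.15).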

Additional observations from a re-analysis of the deposited data

How the results depend on the processing

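On the deposited scale 10231 tested probe sets were called, 18275 with ribosomal centring, 20271 with the median of ribosomal genes, and 2001 at a difference of at least 1 log2. That size threshold left 1 of the 7 called member probe sets and 12 of the 43 called genes of the lists. Higher calls made up 48.6% of all called probe sets, 73.0% after median centring, 88.8% after ribosomal and 10.7% after poly-A centring. Arrays with the same replicate letter did not deviate together from their group means (correlations of -0.18, -0.30 and -0.22). Such correlations cannot show whether same-lettered samples came from the same mouse or sort. With the replicate block 7 member probe sets, 34 list genes and 8391 probe sets were called. Leaving out each array in turn gave 5 to 7 called member probe sets, 34 to 41 list genes and 8468 to 9254 probe sets. The called Cd86 probe set reversed to 0.21 with the median of ribosomal genes and lost its call after quantile normalization (-0.41, limma adjusted p = 0.0640). With no level filter, with the filter on all 6 arrays, without the variance trend and with array weights, the 7 member calls were kept. Signal near the array medians limits Arg1, Nos2, Cd80 1427717_at and 1454372_at, and Il4ra 1447858_x_at.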
